A study of Mus musculus with 6 samples.

Results

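The insulin-like growth factor (IGF) genes examined were both ligands, *Igf1* and *Igf2*, the receptor gene *Igf1r* and 6 genes of IGF binding proteins, *Igfbp2* to *Igfbp7*. They were taken by symbol, and all 9 were found among the 46603 genes of the table. RNA-Seq had been performed on whole sciatic nerves of 3 *Ep400ΔPNS* mice and 3 controls at postnatal day 9 (P9), on a mixed background that the labels give as 129SvJ/C57Bl/6J and the methods as C3H x C57Bl/6J. *Ep400ΔPNS* mice carried floxed alleles of *Ep400*, which encodes a chromatin remodeler, together with *Dhh::Cre*, a transgene whose promoter is active in developing Schwann cells (SCs). Controls are labelled with the conditional *Ep400* allele and without the Cre. RNA came from the whole nerve, which besides SCs holds fibroblasts, perineurial and endothelial cells and macrophages.

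The table gives 1 level per gene, the mean normalised count over all 6 libraries, so that both genotypes are pooled in every value below. Its other columns hold the comparison of the genotypes made for the study and were not used here. No value of a single library stands in the table, so that neither a difference between genotypes nor a spread between mice could be computed. A gene that differs strongly between genotypes would have a level that describes neither of them. The means of all genes summed to 25608535 normalised reads per library. For genes with very few reads the mean reveals what 1 read was worth in each library, and this gave size factors between 0.908 and 1.20 for the 6 libraries, which carry no label. *Ep400* itself had a mean of 4490, which mixes nerves with and without the deletion in SCs and does not check it.

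IGF-I and IGF-II are secreted peptides that activate the IGF1 receptor, a receptor tyrosine kinase that signals through IRS adaptors, PI3 kinase and Akt. In the extracellular space most IGF is held by binding proteins, which prolong its life, keep it from the receptor or deliver it to cells, and which are opened by proteases. In peripheral nerve, IGF signalling is known for supporting the survival of SCs, their myelination and the regrowth of axons. *Igf2* is an imprinted gene that is expressed from the paternal allele and in rodents is most active before and shortly after birth.

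Transcripts of most of the family were abundant in these nerves. The 9 means ran from 525 for *Igfbp2*, which ranked 7184th of all genes by its mean, to 76712 for *Igf2*. Together the members held 0.560% of all normalised reads. Since long transcripts yield more reads, genes were compared by the mean per kb of merged exons, the length covered by all annotated exons of a gene. The coding length, used as an alternative, is the longest coding sequence of a single transcript. It leaves out untranslated ends although reads were counted per gene, and so favours genes with long ones. Merged exons include exons that single transcripts leave out, and so can lower genes with many alternative exons. For *Igf1r* they span 16791 bases, against 11409 for the longest coding transcript. By merged exons the order was *Igf2*, *Igfbp7*, *Igfbp6*, *Igfbp5*, *Igfbp4*, *Igfbp3*, *Igf1*, *Igfbp2* and *Igf1r*. All 9 levels per kb lay above 14.8, the median of the 30407 genes with reads and an annotated length, and 7 of the 9 were higher than at least 90% of these genes. The exceptions were *Igfbp2* (88.1%) and *Igf1r* (74.5%). Counting error of the means, as a relative standard deviation, was at most 1.87% in this family. Which neighbours in this order differ by more than the spread between mice cannot be told from pooled means.

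**Figure D1:**
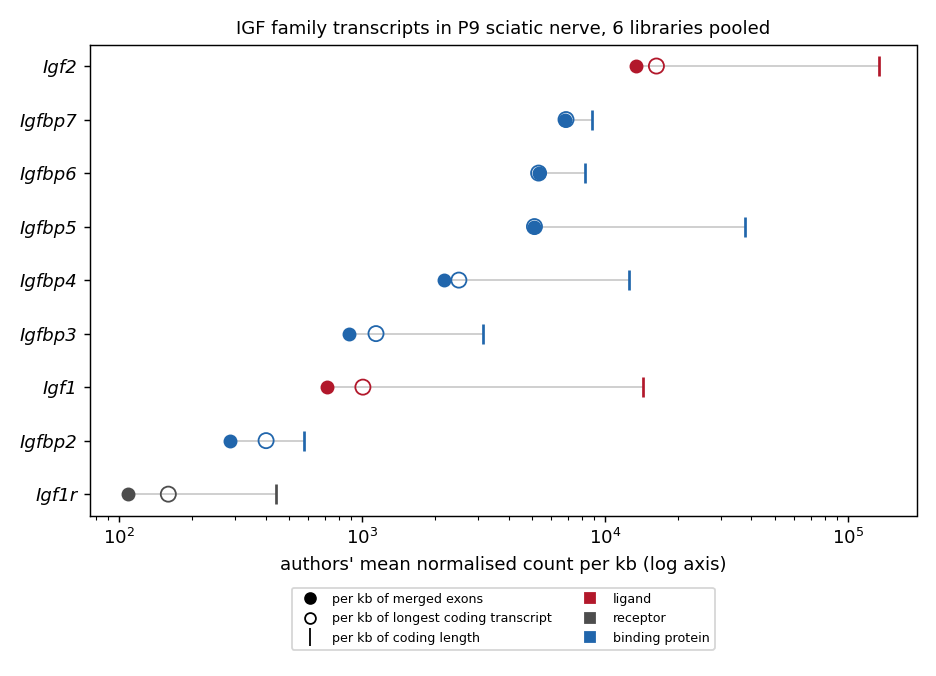
Mean normalised count per kb of each member on a log axis, pooled over 6 libraries of *Ep400ΔPNS* and control nerves and ordered by the level per kb of merged exons. Filled circles use merged exons, open circles the longest coding transcript and ticks the coding length. *Igf2* is highest and *Igf1r* lowest by each of these lengths, whereas *Igf1*, *Igfbp5* and *Igfbp4* move up in the order by coding length.

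The ligand *Igf2* was the most abundant member. It had a mean of 76712, or 0.300% of all normalised reads, and ranked 23rd of all genes by its mean. Per kb of merged exons its level was 13404, which exceeded that of *Sox10* (3752), which encodes a transcription factor of SCs. The fibroblast proteoglycan gene *Dcn* was lower than *Igf2* per kb of merged exons (8191), but higher per kb of the longest coding transcript, with 27200 for *Dcn* and 16246 for *Igf2*. By coding length *Dcn* was again lower, with 45026 against 133878, and so was its mean of 47818. The gene (chr7:142650766-142666816 of mm10, minus strand, ENSMUSG00000048583) has 9 annotated transcripts, whose reads are joined in 1 value. *H19*, the maternally expressed noncoding RNA gene that shares an imprinted domain with *Igf2*, was still higher with 36729 per kb and a mean of 90352. *Igf2os*, which overlaps *Igf2* over 7124 bases on the other strand, had a mean of 80.3. The sources used here do not say if counting made use of the strand, but the reads of this antisense gene were few beside those of *Igf2*.

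The RefSeq promoter table holds 4 start sites for *Igf2*, and the counts do not tell them apart. The 100 bases before the most downstream of them (chr7:142657497-142657596, minus strand, GRCm38.p6) are shown because *Igf2* led the family, with matches to GGGCGG, the core of a GC box, in capitals.

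Igf2, most downstream start: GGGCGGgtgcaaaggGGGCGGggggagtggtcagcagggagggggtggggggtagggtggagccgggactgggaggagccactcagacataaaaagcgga

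The other ligand, *Igf1*, was expressed at a much lower level. Its mean was 7092 and its level per kb of merged exons 716, so that *Igf2* was 18.7 times as high per kb and made up 94.9% of the ligand sum. The size of this ratio depends on the length used, since *Igf1* (chr10:87858265-87937042, ENSMUSG00000020053) has 8 annotated transcripts with long untranslated ends and a coding length of just 495 bases. By coding length the ratio was 9.34, and by the longest coding transcript 16.2. *Igf1* thus remained below *Igf2* by each length. *Igf1os*, a gene antisense to *Igf1*, had 15 reads in total, which came from 2 of the libraries.

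*Igf1r*, which encodes the receptor for both ligands, had the lowest level per kb of the family. Its mean was 1815, but the merged exons span 16791 bases, and the level per kb was 108. It lies at chr7:67952827-68233668 (ENSMUSG00000005533), on the same chromosome as *Igf2* but far from it. The insulin receptor gene *Insr*, whose product can form hybrid receptors with IGF1R, had a level of 129 per kb and a mean of 1779. *Igf1r* was at 0.835 times *Insr* per kb of merged exons and at 1.02 times by coding length, so that the order of both receptors depends on the length used. *Igf2r*, which encodes the mannose 6-phosphate receptor that takes up and degrades IGF-II, had 410 per kb and thus 3.80 times the level of *Igf1r*. By coding length this ratio was 1.16.

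The bases before the RefSeq start site of *Igf1r* (chr7:67952157-67952256, plus strand) are given because the member with the lowest level has one of the most GC-rich promoters. The window from 250 bases before to 50 bases after the start holds 76% G and C, above 96.9% of the promoter windows of all genes. GC box matches are again in capitals.

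Igf1r: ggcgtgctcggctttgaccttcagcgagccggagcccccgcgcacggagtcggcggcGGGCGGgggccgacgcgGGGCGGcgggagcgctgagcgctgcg

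Binding protein and ligand transcripts were of the same order. The 6 binding protein genes summed to 20608 per kb of merged exons and both ligands to 14120, a ratio of 1.46, but by coding length the ratio was 0.480 and thus the ligand sum was the larger. Among the binding protein genes, *Igfbp7*, *Igfbp6* and *Igfbp5* were the most abundant per kb of merged exons and together held 83.8% of the IGFBP sum on this scale. *Igfbp7* encodes a secreted protein of the vessel wall and matrix that binds IGFs with lower affinity than the others. It had a mean of 8275 and 6845 per kb, or 33.2% of the IGFBP sum. *Igfbp6*, whose product prefers IGF-II over IGF-I, had a mean of 5914 and 5318 per kb, or 25.8%. *Igfbp5*, whose product also binds to extracellular matrix, had the highest mean of the binding proteins with 30710, and 5113 per kb, or 24.8%. The levels per kb of *Igfbp6* and *Igfbp5* stood close together, at a ratio of 1.04.

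The order of the binding proteins rests on the length by which their reads are divided, above all for *Igfbp5*. The merged exons of *Igfbp5* span 6006 bases, of which a coding length of 813 bases is a small part, whereas those of *Igfbp6* and *Igfbp7* span 1112 and 1209 bases. By coding length *Igfbp5* held 53.1% of the IGFBP sum and was first of the binding proteins. *Igfbp4* was then second with 17.6%, ahead of *Igfbp7* with 12.4% and *Igfbp6* with 11.6%, and it also stood above both by its mean without length correction. The longest coding transcript gave *Igfbp5* 23.9%.

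The remaining binding proteins were less abundant per kb of merged exons. *Igfbp4*, whose product inhibits IGF action until it is cleaved by PAPP-A, had a mean of 9568 and 2167 per kb, or 10.5% of the IGFBP sum. *Igfbp3*, which encodes the main IGF carrier of serum, had a mean of 2757 and 881 per kb, or 4.27%. *Igfbp2*, whose product carries IGFs in blood and cerebrospinal fluid and is high in fetal tissues, had a mean of 525 and 284 per kb, or 1.38%. *Igfbp2* was the lowest binding protein by each of the lengths used.

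**Figure D2:**
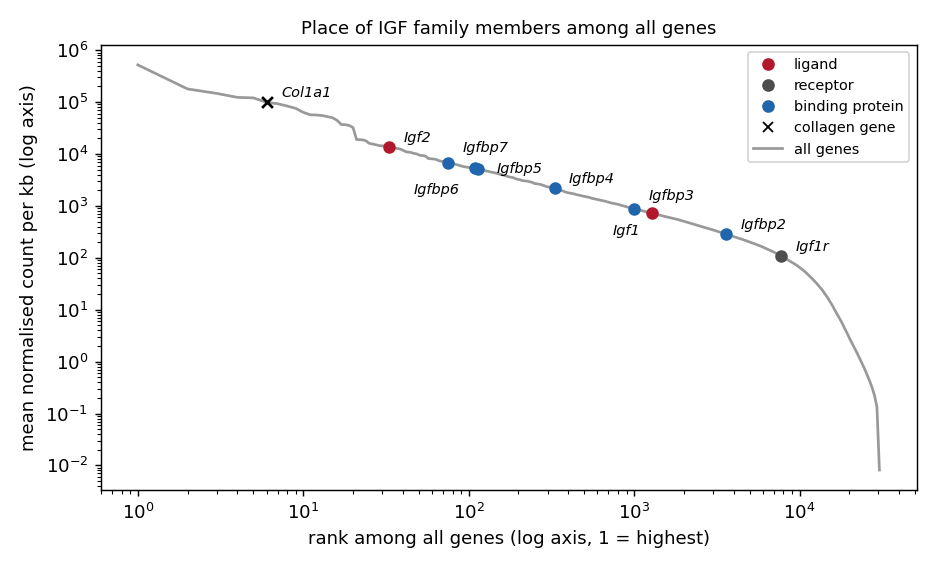
Mean normalised count per kb of merged exons of all genes with reads, ordered from highest to lowest (grey line, both axes log), with the IGF family in colour. Members range from rank 33 for *Igf2* to rank 7765 for *Igf1r*, and the collagen gene *Col1a1* is marked for scale.

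Neighbouring binding protein genes had very different levels. *Igfbp2* (chr1:72824503-72852474, plus strand, ENSMUSG00000039323) and *Igfbp5* (chr1:72857932-72874884, minus strand, ENSMUSG00000026185) point towards each other with 5457 bases between their ends. *Igfbp5* was 18.0 times as high as *Igfbp2* per kb of merged exons, and 65.8 times by coding length. *Igfbp3* (chr11:7206086-7213923, minus strand, ENSMUSG00000020427) is paired in the same manner with *Igfbp1*, a gene of a mostly hepatic binding protein, at a distance of 3539 bases. *Igfbp3* had a mean of 2757 and *Igfbp1* a mean of 1.04, which corresponds to 6 reads in all, 5 of them in 1 library. *Igfbp4* (chr11:99041244-99054392, ENSMUSG00000017493), *Igfbp6* (chr15:102144362-102149511, ENSMUSG00000023046) and *Igfbp7* (chr5:77349240-77408041, ENSMUSG00000036256) have no other IGFBP gene beside them. *Igfbp7* overlaps the RNA polymerase gene *Polr2b* over 85 bases on the other strand, which had a mean of 1581.

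The 100 bases before the start sites of the neighbours *Igfbp5* (chr1:72874866-72874965, minus strand) and *Igfbp2* (chr1:72824380-72824479, plus strand, the more upstream of 2 RefSeq starts) are set side by side because these members of the family are neighbours with unequal levels. Capitals mark GGGCGG, which is found in the sequence of *Igfbp2* and not in that of *Igfbp5*. The promoter windows hold 56.3% G and C in *Igfbp5* and 67% at this start of *Igfbp2*. The window of the other *Igfbp2* start holds 57.3% G and C and no GGGCGG, so that the contrast is limited to the start shown.

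Igfbp5: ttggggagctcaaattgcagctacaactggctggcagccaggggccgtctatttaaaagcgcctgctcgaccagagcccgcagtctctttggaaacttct

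Igfbp2: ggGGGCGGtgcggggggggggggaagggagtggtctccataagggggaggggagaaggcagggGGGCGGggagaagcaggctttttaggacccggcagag

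Promoter windows of 300 bases from RefSeq were found for all 9 members, with 13 windows in total as *Igf2* and *Igfbp2* have several starts. They were searched on both strands for TATAAA as a TATA box, for GGGCGG as a GC box and for CCAAT as a CCAAT box. TATAAA was present in windows of *Igfbp4* and *Igfbp6* (2 of 13 windows, against 13.6% of the 32851 windows of all genes). GGGCGG was found in *Igf1r*, *Igf2*, *Igfbp2* and *Igfbp7* (5 of 13 windows, against 35.7%), and CCAAT in *Igf1*, *Igf2* and *Igfbp6* (3 of 13, against 37.4%). In *Igf2* and *Igfbp2* these matches lay in some of the windows and not in others. Neither the most abundant binding protein gene by mean, *Igfbp5*, nor *Igfbp3* had an exact match to any of the 3 motifs. Variants of the motifs were not searched for, so that a related element is not excluded. The matches found describe the letters of a window and do not identify a bound factor.

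Outside the family, other ligands and carriers of the system were nearly absent. Of 8 further genes of ligands, receptors and binding proteins, *Igf2r*, *Insr* and *Igfals* reached a mean of 10. The insulin gene *Ins1* was listed at 0, and its relative *Ins2* had 12 reads in 4 libraries. *Igfals*, which encodes the acid-labile subunit that retains IGF in serum, had 73 reads over the 6 libraries (mean 12.2), and the binding protein-like gene *Igfbpl1* had 36 (mean 6.06). The insulin receptor-related gene *Insrr* had 22 reads. The serum protein genes of liver *Alb*, *Ttr* and *Apoa1* had means of 7.23, 3.43 and 2.29.

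Genes of proteases that act on binding proteins were present at unequal levels. The serine protease genes *Htra1* and *Htra3* had 901 and 406 per kb. *Pappa*, which encodes the protease PAPP-A that cleaves IGFBP4, was much lower with 23.1 per kb (mean 254), and *Pappa2*, whose product cleaves IGFBP3 and IGFBP5, had 3.31 per kb (mean 34.0). The stanniocalcin genes *Stc1* and *Stc2*, whose products inhibit these pappalysins, had 36.5 and 5.46 per kb. All 6 genes of this group had a mean of at least 10, as did 17012 of the 30644 genes with reads. Per kb, 4 of the 6 lay above the median, which splits all genes evenly.

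Transcripts of the signalling path behind the receptor mostly lay above the median of all genes per kb. The list of 16 genes held adaptors, kinases and Foxo transcription factors, and by its name also *Pdk1*, which encodes a pyruvate dehydrogenase kinase outside this path and had 75.8 per kb. Of the other 15 genes, 14 lay above the median of all genes per kb of merged exons, and 5 were higher than at least 90% of them. Their level exceeded that of *Igf1r* in 13 of the 15 by merged exons and in 11 by coding length. Among the adaptors, *Irs1* had 445 per kb, *Irs2* 175 and *Irs3* 37.6, whereas *Irs4* had 13 reads in all. *Grb10*, an imprinted gene whose product restrains insulin and IGF receptors, was the highest of this group with 891 per kb, and its relative *Grb14* had 141. The Akt kinase genes *Akt1* and *Akt2* had 795 and 258 per kb. *Pik3r1*, which encodes a regulatory subunit of PI3 kinase, had 669 per kb. *Pik3ca*, the gene of a catalytic subunit, had 196, *Pdpk1* 158 and *Mtor* 225 per kb. The transcription factor genes *Foxo3* and *Foxo1*, which act downstream of Akt, had 524 and 204. The adaptor gene *Shc1* had 292 per kb.

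The genes of the *Igf2* mRNA-binding proteins differed widely. *Igf2bp2* had 641 per kb and was far above its relatives *Igf2bp3* with 23.6 and *Igf2bp1* with 15.0, which stood close to the median of all genes.

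**Figure D3:**
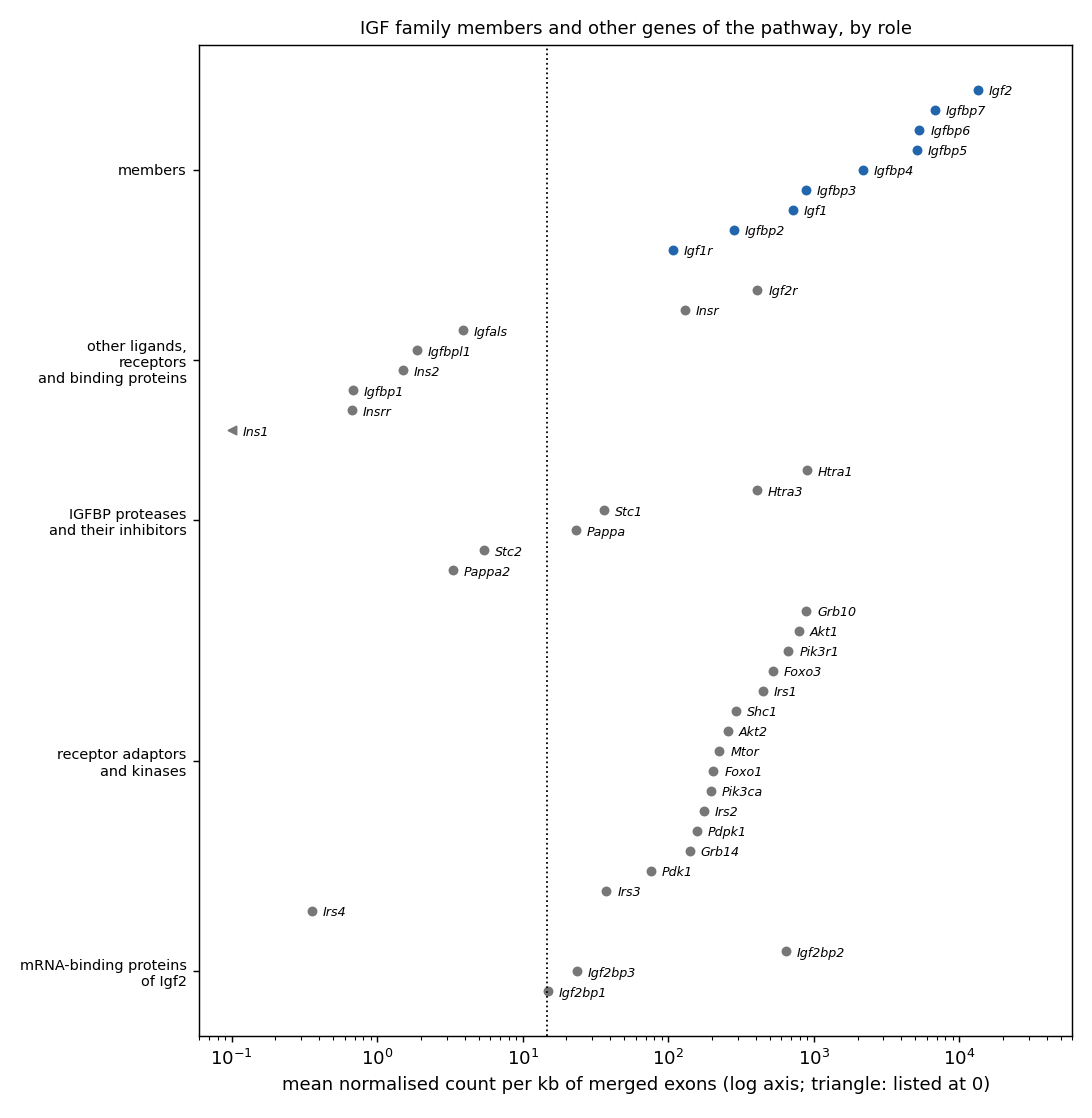
Mean normalised count per kb of merged exons (log axis) of the IGF family, in blue, and of other genes of the pathway, in grey, grouped by role, pooled over the 6 libraries. The group of adaptors and kinases includes the *Foxo* genes and *Pdk1*. The dotted line is the median of all genes with reads at 14.8, all members lie to its right, and *Ins1* is drawn at the left edge because it was listed at 0.

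Which cells of the nerve gave rise to these transcripts cannot be told from whole tissue, where the number of cells of a type and the RNA per cell are also joined in 1 value. Marker genes of SCs had levels from 1302 per kb for *Egr2* to 4211 for *S100b*, and fibroblast markers from 677 for *Pdgfra* to 99007 for *Col1a1*. Perineurial markers ranged from 603 to 3227 per kb, endothelial markers from 165 to 1309 and macrophage markers from 108 to 550. Skeletal muscle transcripts were present too, with 4519 per kb for *Acta1*, 3325 for *Myh4* and 917 for *Ckm*. *Igf1r* was thus about as abundant per kb of merged exons as the least abundant macrophage marker, *Aif1* (108). Of the neuronal markers, *Rbfox3* and *Slc17a7* had means of 4.81 and 13.3, and *Syn1* 76.5. The paper reports muscle genes among those upregulated in *Ep400ΔPNS* nerves and calls contamination by muscle cells unlikely. It also reports more macrophages positive for Iba1, the product of *Aif1*, and lower expression of *Krox20* (*Egr2*) in these nerves. The pooled levels of such markers may therefore describe neither genotype. The part of each cell type in the IGF family levels was not tested.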

How the data were processed

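Stranded mRNA libraries of 3 *Ep400ΔPNS* and 3 control nerves were aligned by the authors to mm10 with STAR 2.5.1, counted per Ensembl gene with HTSeq and analysed with DESeq2 (1.10.1 in the methods). The signal used is the authors' deposited mean over 6 libraries of counts divided by size factors, under a header that calls it raw. All 7875 genes with means under 1.3 were whole reads on this reading (100%, tolerance 1e-09). Fold changes, standard errors, Wald statistics and p-values in the other columns are the authors' comparison and were not used, so that the count model planned for the genotypes could not be fitted. Lengths came from GENCODE M21 (46091 of 46603 IDs matched) and promoters from RefSeq (GRCm38.p6). The gene IDs are of Ensembl release 82 and the methods name another release, so that lengths and counts rest on different gene models. Means of at most 13 were split into whole reads of unlabelled libraries, a step that recovered 200 of 200 sets in simulated data. Counting error is the relative standard deviation of Poisson counting at the fewest reads that the size factors allow for a mean. It covers counting alone and is not a limit of the error. Named are all members, the pathway lists and neighbouring genes, and some genes of the pathway and marker lists are not reported here and stand in none of the counts over these lists. Members and lists were chosen with earlier results of these data known, and *H19*, *Ep400* and antisense genes were added after their values were seen. Likeness of patterns was not computed from 1 value per gene. Alternatives were other lengths and other sets of genes for percentiles. Tools were Python 3.11.15, numpy 2.4.6, scipy 1.17.1, pandas 2.3.3 and matplotlib 3.10.9.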

Additional observations from a re-analysis of the deposited data

How the results depend on the processing

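The length by which means are divided was the choice that moved the results most. By coding length, *Igf2* over *Igf1* was 9.34, the IGFBP sum over the ligand sum 0.480 against 1.46 with merged exons, *Igf1r* over *Insr* 1.02, *Igf2r* over *Igf1r* 1.16, *Igfbp5* over *Igfbp2* 65.8 and the *Igfbp5* share 53.1%. The sums of ligands and binding proteins therefore changed places. Coding length leaves out untranslated ends although reads were counted per gene, and so favours genes with long ones. Merged exons have a limit too, since they include exons that single transcripts leave out and can lower genes with many of these. With the longest coding transcript, chosen after seeing the data, the values were 16.2, 1.24, 0.836, 2.70, 12.7 and 23.9%, in the same order of ratios. Without length correction, added afterwards except for the share, they were 10.8, 0.689, 1.02, 2.10, 58.5 and 53.2%. Of the 9 members, 6 changed place between merged exons and coding length and 0 between merged exons and the longest coding transcript. *Igf2* was first under all 4 settings. *Igf1r* was last under the 3 settings with a length, and *Igfbp2* was last by the uncorrected mean. Percentiles by mean ranged from 57.8 to 99.9 among the genes whose mean reached 10, and from 61.0 to 99.9 among protein-coding genes by RefSeq symbol, which stood in for a planned protein table. The highest size factor was 1.32 times the lowest, from genes with 1 read in a library. Genes with 2 reads were picked by the worth of 1 read, so that they had to give the same value and do not check it. No paired analysis was possible because the table holds no values of single libraries, and fits that leave out a replicate, another count test or filter were not run for the same reason.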
